A study of Homo sapiens with 4 samples.

Results

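Smad2 and Smad3 binding, each measured through a LAP tag, was examined at 7 genes through which TGFβ is known to drive metastasis of breast cancer cells, namely IL11, PTHLH, CCN2, ANGPTL4, JAG1, CXCR4 and GLI2. The 7 genes were taken by name, out of 20033 protein-coding genes in GENCODE release 44, for what is known of them. Earlier results of these data were known when they were chosen. A peak was counted at a gene when it overlapped the annotated gene or the 10 kb on either side of it. In all, 51 peaks from the 4 lists were found at these genes, of which 2 came from the library labelled LAP-Smad2 untreated, 0 from the library labelled LAP-Smad3 untreated, 8 from LAP-Smad2 with TGFβ-1 and 41 from LAP-Smad3 with TGFβ-1.

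The cells were MDA-MB-231, a human breast cancer line that forms metastases. Each line carried a bacterial artificial chromosome (BAC) with SMAD2 or SMAD3 and its own control elements, fused at the C-terminal end to the LAP tag, which contains GFP. The lines were populations selected with Geneticin and sorted for GFP, and they still made their endogenous, untagged Smads, while the anti-GFP antibody used for ChIP-seq is directed at the tag. Each line was left untreated or received 10 ng/mL TGFβ-1 for 2 h, which gives 4 conditions with 1 library each, so differences between them could not be checked against replicates and were not tested.

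The TGFβ receptor phosphorylates Smad2 and Smad3, which join Smad4, enter the nucleus and bind DNA together with other transcription factors. In breast cancer cells that spread to bone, TGFβ released from the bone matrix is known to raise secreted factors that activate bone-resorbing osteoclasts, and resorption in turn releases more TGFβ. IL11, PTHLH and CCN2 encode such secreted factors. ANGPTL4 encodes a secreted protein known from spread to the lung, JAG1 a ligand of Notch receptors on neighbouring cells, CXCR4 the receptor for the chemokine CXCL12, and GLI2 a transcription factor of the Hedgehog pathway that is known to act upstream of PTHLH.

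The untreated libraries need a caution before any result. Their sample labels and the names under which their lists were deposited give opposite Smads, so each is called here by its label and no direction is drawn from it. Within 10 kb of SMAD2, which is on the BAC of the LAP-Smad2 line, there were 18 peaks in LAP-Smad2 with TGFβ-1 and 1 in LAP-Smad3 with TGFβ-1, and of the untreated libraries the one labelled LAP-Smad2 had 2 and the one labelled LAP-Smad3 had 14. At SMAD3 the same libraries had 1, 52, 0 and 1 peaks. The treated lists thus had their larger count at the gene their label names, and of the untreated lists it was the one labelled LAP-Smad3 that had the larger count at SMAD2. The lists differed in length, with 11266 and 3511 peaks in the libraries labelled LAP-Smad2 and LAP-Smad3 untreated, and 26828 and 62551 in LAP-Smad2 and LAP-Smad3 with TGFβ-1.

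The lists hold no read totals, but the number of reads behind each peak could be recovered. The fold enrichment of a peak is the ratio of the pileup plus 1 to the local background plus 1, where the pileup is the number of reads, extended to 200 bp, that cover the summit. Together with the p-value, this ratio fixes the pileup as a whole number for all but 2 of the peaks in the 4 lists. The median peak rested on 19 reads in the LAP-Smad2 list and on 11 reads in the LAP-Smad3 list after TGFβ-1, and on 12 and 25 in the libraries labelled LAP-Smad2 and LAP-Smad3 untreated. The most common background was 3.21 reads in the LAP-Smad2 list and 0.812 reads in the LAP-Smad3 list after TGFβ-1. A fold enrichment therefore rests on different read numbers in different lists, and fold enrichments are compared only within a list. The percentile of a fold enrichment is its rank within its own list, with tied peaks given their mean rank.

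After TGFβ-1, 5 of the 7 genes had a LAP-Smad2 peak and 5 of the 7 had a LAP-Smad3 peak. Among all protein-coding genes, 55.9% had a LAP-Smad2 peak and 74.3% had a LAP-Smad3 peak by the same rule, so a peak at most of the 7 genes was also the usual state of a gene in these lists. Of the untreated libraries, the one labelled LAP-Smad2 had a peak at 2 of the 7 genes, against 22.0% of protein-coding genes, and the one labelled LAP-Smad3 at 0 of 7, against 9.14%. IL11, JAG1, ANGPTL4 and GLI2 had peaks of both treated lists, which is 4 of 7 genes beside 47.0% of all genes. CXCR4 had peaks in the LAP-Smad2 list only and CCN2 in the LAP-Smad3 list only, among the treated lists, and PTHLH had none in any of the 4 lists. Over all protein-coding genes, 47.0% had both, against 55.9% and 74.3% with each, so peaks of 1 treated list only occurred elsewhere too. Such genes more often had LAP-Smad3 peaks only. CXCR4 and CCN2 are thus not read as specific to 1 Smad.

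**Figure D1:**
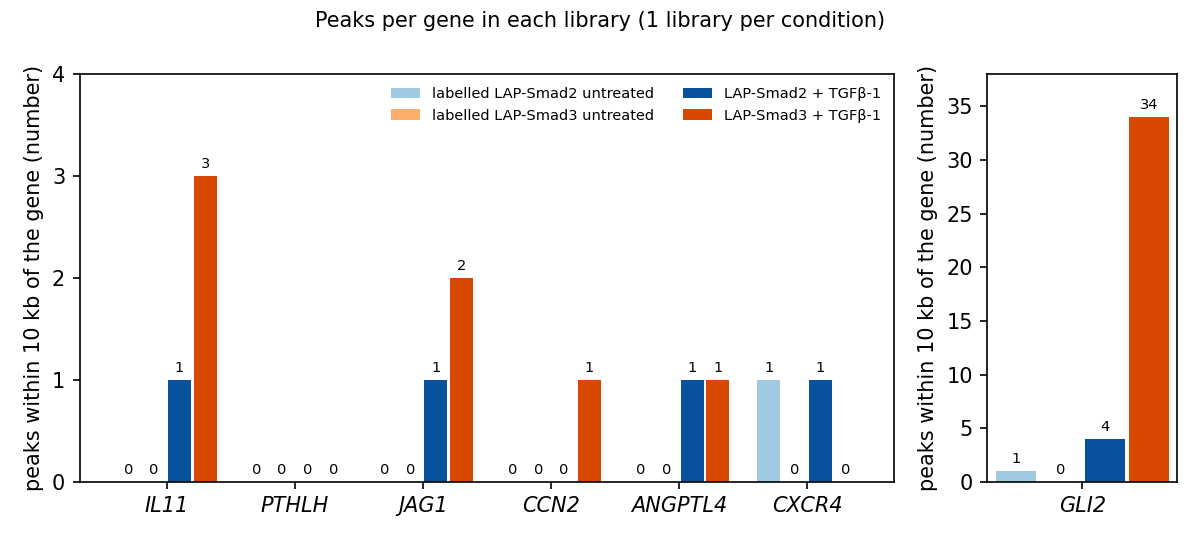
Number of peaks at each gene, counted within the gene and 10 kb on either side, with 1 bar per library and the count above each bar. GLI2 is drawn on an axis of its own, because it held 34 LAP-Smad3 peaks after TGFβ-1 while the other genes held at most 3 in any list.

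The plot of peaks per gene shows that GLI2 set the totals. It held 4 of the 8 LAP-Smad2 peaks and 34 of the 41 LAP-Smad3 peaks after TGFβ-1, or 50% and 82.9%. Outside GLI2, the treated lists had 4 LAP-Smad2 and 7 LAP-Smad3 peaks. GLI2 with its flanks spans 277 kb, while the windows of the other 6 genes span from 23.2 kb at CCN2 to 56.3 kb at JAG1. Whether the length of GLI2 accounts for its count was not tested.

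IL11 (ENSG00000095752.7), a cytokine of the interleukin 6 family that promotes the formation of osteoclasts, lies on chr19:55364382-55370463 on the minus strand. It had 0 peaks in both untreated libraries, 1 LAP-Smad2 peak and 3 LAP-Smad3 peaks after TGFβ-1. All 4 lay past the 3′ end of the gene and none was within 3 kb of an IL11 start site. The LAP-Smad2 peak at chr19:55354480-55354794 had 23 reads over a background of 5.26, a fold enrichment of 3.83, and its summit was 14593 bp from the nearest IL11 start site but 39 bp from a start site of COX6B2, in which it lies. The LAP-Smad3 peaks had fold enrichments of 5.88, 5.45 and 4.90 on 11, 9 and 9 reads, at 8966, 6390 and 5673 bp from the nearest IL11 start site. The 2 of them nearest to IL11 had their summits 401 and 308 bp from a start site of GARIN5B, the neighbouring gene. By position, the peaks counted at IL11 were thus nearer to the start sites of its neighbours than to its own.

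The LAP-Smad3 peak with the highest fold enrichment at IL11 lies within GARIN5B on repeated sequence. Of the 30-base words in the 200 bp around its summit, 5.85% occur only once in hg38, and the most frequent occurs 141 times, so most stretches of it do not mark a single place in the genome. In the other LAP-Smad3 windows at IL11, the share of words that occur only once was 100% and 78.9%.

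PTHLH encodes the parathyroid hormone-related protein, which acts through the receptor PTH1R to start bone resorption, and its gene (ENSG00000087494.16) lies on chr12:27958084-27972733 on the minus strand. It was the only one of the 7 genes with 0 peaks in each of the 4 lists. Its window of 34.6 kb, with 9 annotated start sites, was longer than those of IL11, CCN2, ANGPTL4 and CXCR4. How many of all protein-coding genes had no peak in any list was not counted, so the lack of peaks is not read as unusual. The nearest peak was 84.1 kb from the gene in the LAP-Smad2 list and 87.9 kb in the LAP-Smad3 list after TGFβ-1, and 83.7 kb in the library labelled LAP-Smad2 untreated. In the library labelled LAP-Smad3 untreated it was 7410 kb away. A list holds only peaks past its threshold, so this says that no peak was called at PTHLH, not that no Smad was bound there.

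CCN2, also called CTGF, is a matricellular protein of the bone metastasis programme and a widely used TGFβ target gene. The gene (ENSG00000118523.6) lies on chr6:131948176-131951372 on the minus strand and had 1 peak, in the LAP-Smad3 list after TGFβ-1. The peak, at chr6:131950041-131950410, had its summit 1144 bp inside the gene from its single start site, in an intron, where the noncoding gene LINC01013 is also annotated. It rested on 7 reads (95% exact Poisson interval 2.81 to 14.4, for counting error only) over a background of 0.833. Its fold enrichment of 4.36 was at percentile 28.1 of its list. It was thus in the lower part of that list. In each of the other 3 lists the nearest peak was 237 kb from CCN2. The window of this peak, the only one at CCN2, is shown, and it begins with a match to CAGAC read on the minus strand. Capitals mark each match to CAGAC, the Smad binding element, or to GGCGC, a GC-rich Smad element, on either strand, in each sequence printed here, and all of them were read from the plus strand of hg38.
CCN2 chr6:131950129-131950328: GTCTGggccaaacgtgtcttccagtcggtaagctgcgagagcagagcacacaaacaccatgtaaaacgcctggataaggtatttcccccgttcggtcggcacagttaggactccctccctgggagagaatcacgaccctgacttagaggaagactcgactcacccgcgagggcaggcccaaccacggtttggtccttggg

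ANGPTL4 encodes a secreted protein that loosens contacts between endothelial cells, and the gene (ENSG00000167772.12) lies on chr19:8363289-8374370 on the plus strand. Neither untreated library had a peak at it, and after TGFβ-1 each Smad had 1, at different places. The LAP-Smad2 peak at chr19:8371202-8371401 had 23 reads over a background of 5.46, a fold enrichment of 3.72, and its summit lay in a coding exon 6923 bp from the nearest start site. The LAP-Smad3 peak at chr19:8357812-8358011 had 12 reads over a background of 2.78, a fold enrichment of 3.44, and its summit lay 5390 bp upstream. The summits were 13422 bp apart. In the window of the LAP-Smad3 peak, 0% of the 30-base words occur only once in hg38 and the most frequent occurs 89873 times, so no stretch of that length marks a single place. Without that peak, ANGPTL4 had a LAP-Smad2 peak only.

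JAG1 was the gene at which the treated lists shared a site. JAG1 is a membrane-bound ligand of Notch receptors, through which tumour cells signal to bone cells, and its gene (ENSG00000101384.12) lies on chr20:10637684-10673999 on the minus strand. Neither untreated library had a peak within 10 kb of it, and their nearest peaks were 242 and 840 kb away in the libraries labelled LAP-Smad2 and LAP-Smad3 untreated. After TGFβ-1, the LAP-Smad2 peak at chr20:10671993-10672222 and the LAP-Smad3 peak at chr20:10671970-10672266 overlapped by 230 bp, and their summits were 56 bp apart, in an intron 1904 and 1848 bp from the nearest start site. The LAP-Smad2 peak had 18 reads (interval 10.7 to 28.4) over a background of 4.54. Its fold enrichment of 3.43 was at percentile 20.5 of its list. The LAP-Smad3 peak had 10 reads (interval 4.80 to 18.4) over 0.840. Its fold enrichment of 5.98 was at percentile 79.8 of its list. The shared site was thus low in the LAP-Smad2 list and in the upper part of the LAP-Smad3 list.

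The window around the LAP-Smad2 summit is the only stretch at the 7 genes that lies in overlapping peaks of both treated lists.
JAG1 chr20:10671996-10672195: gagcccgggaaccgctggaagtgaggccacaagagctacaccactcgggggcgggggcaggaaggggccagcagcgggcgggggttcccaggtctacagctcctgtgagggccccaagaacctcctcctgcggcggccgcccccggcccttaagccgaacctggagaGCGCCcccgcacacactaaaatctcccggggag
It is 70.0% G and C, holds 1 match to GGCGC and none to CAGAC, and every 30-base word in it occurs only once in hg38. A shared site at 1 of the 7 genes stands beside 16.8% of all protein-coding genes with one. Over the whole lists, 6582 of the 26828 LAP-Smad2 peaks overlapped a LAP-Smad3 peak after TGFβ-1. A second LAP-Smad3 peak at JAG1, at chr20:10637213-10637444, lay just past the 3′ end of the gene with 12 reads over 0.812. The fold enrichment of this peak, 7.17, was at percentile 94.1 of its list. This was the joint highest LAP-Smad3 fold enrichment at the 7 genes, together with 2 peaks at GLI2.

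CXCR4, the chemokine receptor through which cells home to tissues that make CXCL12, had the summit nearest to a start site among the 7 genes, in the library labelled LAP-Smad2 untreated. The gene (ENSG00000121966.8) lies on chr2:136114349-136119177 on the minus strand. The LAP-Smad2 peak after TGFβ-1, at chr2:136119261-136119524, had 21 reads (interval 13.0 to 32.1) over a background of 3.66. Its fold enrichment of 4.72 was at percentile 82.9 of its list, and its summit was 228 bp upstream of the nearest start site. The peak of that untreated library was at chr2:136119225-136119499, with 16 reads (interval 9.15 to 26) over 0.494. Its fold enrichment of 11.4 was at percentile 95.2 of its list, and its summit was 190 bp upstream. These peaks overlapped by 239 bp, with summits 38 bp apart. The 200 bp around each summit also overlaps an exon of another annotated gene, ENSG00000289974. By its deposited name this untreated library is the other Smad, so the pair cannot be read as the same Smad before and after TGFβ-1.

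LAP-Smad3 with TGFβ-1, the longest list, had no peak at CXCR4, and its nearest peak was 129 kb from the gene. Of all protein-coding genes, 74.3% had a LAP-Smad3 peak after TGFβ-1, so the lack of one is not read as unusual. The window around the LAP-Smad2 summit is shown because a treated and an untreated list overlap here on sequence that occurs only once in the genome.
CXCR4 chr2:136119306-136119505: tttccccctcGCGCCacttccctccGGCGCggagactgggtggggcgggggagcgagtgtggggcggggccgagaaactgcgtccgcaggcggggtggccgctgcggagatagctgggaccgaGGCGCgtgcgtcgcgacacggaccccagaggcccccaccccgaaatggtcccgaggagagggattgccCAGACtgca
It is 72.5% G and C, holds 23 CpG, 3 matches to GGCGC and 1 to CAGAC, and every 30-base word in it occurs only once in hg38. The start site used for the distance is the nearest of 6 annotated ones, and relative to the canonical start site the same summit was at −1256 bp, on the upstream side.

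**Figure D2:**
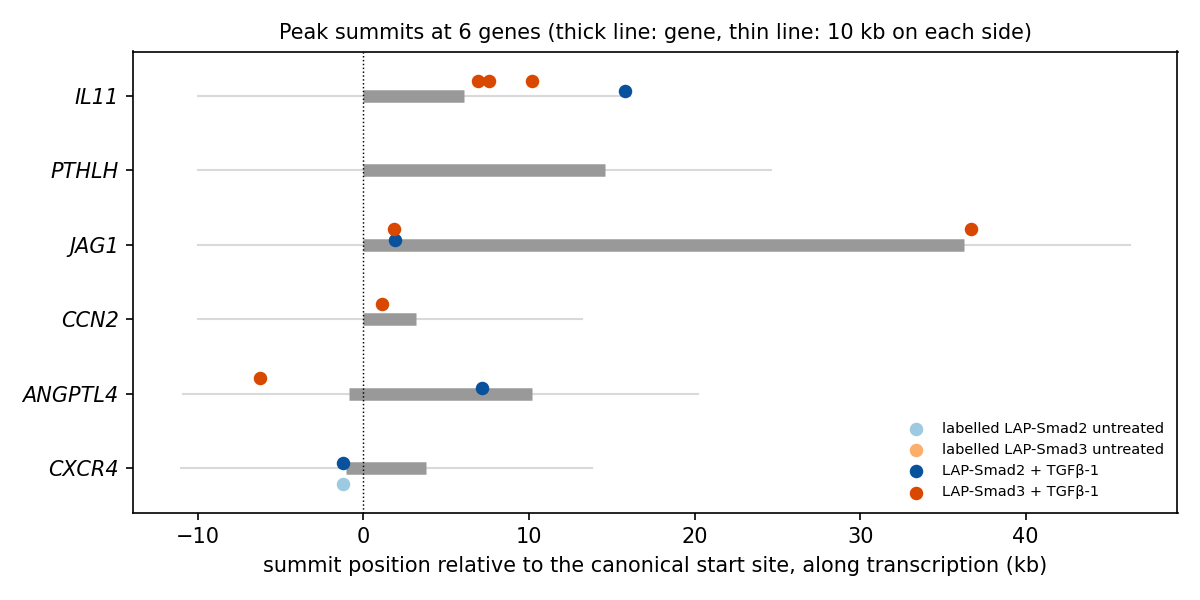
Summits of all peaks at the 6 genes other than GLI2, in kb along the direction of transcription from the canonical start site (dotted line), with 1 colour per library, the gene as a thick line and the 10 kb flanks as thin lines. Summits of both treated lists lie side by side only at JAG1, those at IL11 lie past its 3′ end, and PTHLH has none.

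Counted over all 7 genes, GLI2 included, the summits lay both near start sites and far from them. Within 3 kb of a start site of the gene, there were 3 LAP-Smad2 summits, of which 1 each was at JAG1, CXCR4 and GLI2, and 7 LAP-Smad3 summits, of which 1 was at JAG1, 1 at CCN2 and 5 at GLI2. Of all 8 LAP-Smad2 peaks after TGFβ-1, 5 lay in introns, 1 in an exon, 1 upstream and 1 downstream. Of the 41 LAP-Smad3 peaks, 34 lay in introns, 1 in an exon, 2 upstream and 4 downstream. Of the 34 in introns, 32 were at GLI2. The shares of all peaks of each list near start sites or in introns were not counted, so these places describe the 7 genes only.

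GLI2 is a zinc finger transcription factor that carries out Hedgehog signalling, and the gene (ENSG00000074047.22) lies on chr2:120735623-120992653 on the plus strand. It had 1 peak in the library labelled LAP-Smad2 untreated, 0 in the library labelled LAP-Smad3 untreated, 4 LAP-Smad2 peaks and 34 LAP-Smad3 peaks after TGFβ-1. The 34 LAP-Smad3 peaks come to 12.3 per 100 kb of gene and flanks. Of 20033 protein-coding genes, 27 (0.135%) had at least as many LAP-Smad3 peaks, of which 15 were no longer than GLI2, and 7.20% had at least as high a density, while the median gene had 2 peaks and 2.42 per 100 kb. GLI2 was thus among a smaller share of genes by number than by density. In the LAP-Smad2 list, 6.47% of genes had at least as many peaks as GLI2, and 41.4% had at least as high a density. The 4 LAP-Smad2 peaks of GLI2 come to 1.44 per 100 kb beside a median of 0.746. IL11 came closest to GLI2 in LAP-Smad3 density, with 11.5 per 100 kb, and JAG1, CCN2 and ANGPTL4 had 3.55, 4.31 and 3.22.

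The LAP-Smad3 peaks of GLI2 were spread through the gene body. Of the 34, 32 lay in introns, 1 in a coding exon and 1 upstream, and 29 had their summit more than 10 kb from any of the 7 annotated start sites. They were shallow. Their pileup ranged from 6 to 20 reads with a median of 9, below the median of 11 in the whole list, and 23 of them sat on the background of 0.812 that was most common in that list. Their fold enrichment ranged from 3.35 to 7.17 with a median of 5.45 beside a list median of 4.97. In 11 of the 34 the fold enrichment was below the middle of the list, and in 2 its percentile was at least 90. The identical fold enrichment, to 5 decimals, of 4.41402 was listed for 5 of the peaks, each with 7 reads over the most common background.

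**Figure D3:**
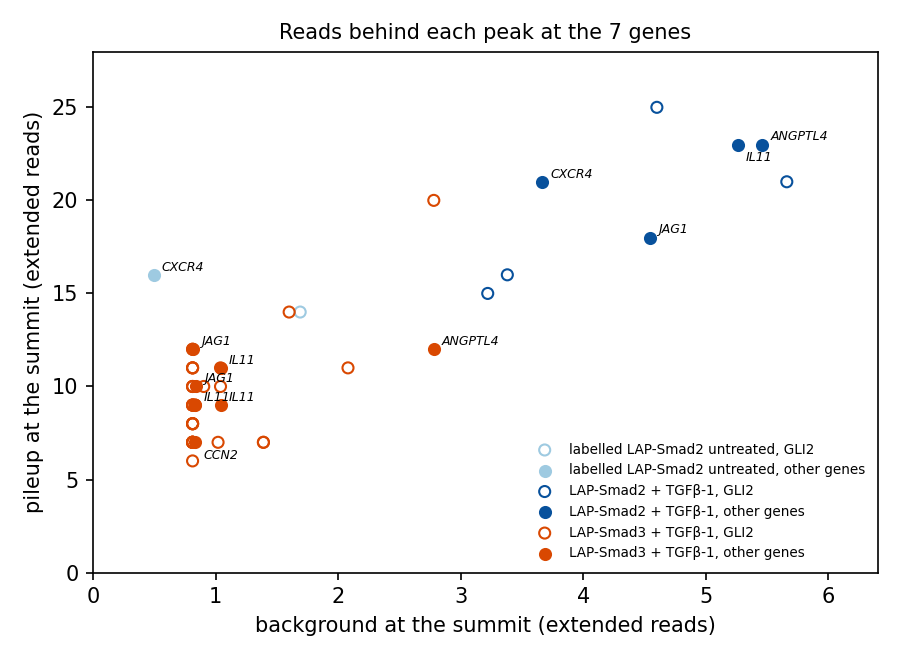
Pileup at the summit against the local background at the summit, both in extended reads, for all 51 peaks at the 7 genes, with GLI2 peaks as open circles and peaks of the other genes as filled, named circles. Most LAP-Smad3 peaks sit near a background of 0.812 with 6 to 12 reads, while the LAP-Smad2 peaks after TGFβ-1 sit at backgrounds from 3.22 to 5.66 with 15 to 25 reads, and some circles lie on top of each other.

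In the plot of reads and background, the treated lists do not overlap in background at the 7 genes, with at most 2.78 reads for LAP-Smad3 and at least 3.22 for LAP-Smad2. Over the 7 genes, the median pileup was 21 reads in LAP-Smad2 peaks, beside 19 in that whole list, and 9 reads in LAP-Smad3 peaks, beside 11. A peak of the LAP-Smad3 list could thus pass with fewer reads than any LAP-Smad2 peak, whose minimum over the whole list was 11 reads, against 5 in the LAP-Smad3 list. The larger number of LAP-Smad3 peaks at GLI2 cannot be told apart from this difference between the libraries, since there is 1 library per condition.

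At the 5′ end of GLI2, LAP-Smad3 and LAP-Smad2 peaks lay next to each other without overlap. The LAP-Smad3 peak at chr2:120735299-120735544 had its summit 227 bp upstream of the nearest start site, with 14 reads over 1.60 and a fold enrichment of 5.78. Further LAP-Smad3 peaks lay at chr2:120736538-120736738 and chr2:120736817-120737223, on 11 and 7 reads. The LAP-Smad2 peak at chr2:120737258-120737496 began 34 bp after the last of these, with 21 reads over 5.66, a fold enrichment of 3.30, and its summit 1550 bp from the nearest start site. None of the 34 LAP-Smad3 peaks overlapped any of the 4 LAP-Smad2 peaks. Over the whole lists, 6582 of the 26828 LAP-Smad2 peaks overlapped a LAP-Smad3 peak, so a LAP-Smad2 peak without overlap was the usual state. The windows of the promoter LAP-Smad3 peak and of its LAP-Smad2 neighbour are shown for this order along the gene.
GLI2 chr2:120735297-120735496: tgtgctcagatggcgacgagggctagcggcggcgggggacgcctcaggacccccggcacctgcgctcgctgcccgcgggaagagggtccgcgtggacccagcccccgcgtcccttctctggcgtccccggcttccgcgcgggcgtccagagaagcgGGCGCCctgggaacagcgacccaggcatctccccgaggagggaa
GLI2 chr2:120737319-120737518: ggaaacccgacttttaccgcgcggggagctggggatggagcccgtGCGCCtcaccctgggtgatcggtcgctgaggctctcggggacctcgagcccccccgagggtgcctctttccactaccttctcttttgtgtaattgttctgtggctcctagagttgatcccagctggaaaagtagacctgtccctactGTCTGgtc
The LAP-Smad3 window holds GGCGC on both strands at 1 place, is 74.5% G and C and has 25 CpG. The LAP-Smad2 window holds 1 match each to CAGAC and GGCGC on the minus strand, is 60% G and C and has 11 CpG.

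The other LAP-Smad2 peaks at GLI2 lay in introns, with summits 5088, 17881 and 10517 bp from the nearest start site. They had 25, 16 and 15 reads, with fold enrichments of 4.64, 3.88 and 3.79. The nearest LAP-Smad3 peaks were 3626, 4720 and 3040 bp away from them. The strongest of the 4 by fold enrichment was thus the one that begins at 120740850, at percentile 81.2 of its list.

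The single peak of GLI2 in the library labelled LAP-Smad2 untreated, with 14 reads over 1.69, had the same summit as a LAP-Smad3 peak after TGFβ-1, with 20 reads over 2.78. Of the 30-base words around it, 6.43% occur only once in hg38 and the most frequent occurs 69713 times, so the summit that these lists share lies on a sequence with many copies elsewhere. The LAP-Smad2 window at chr2:120753632-120753915 was of the same kind, with 25.7% and 69265. In all, 5 of the 51 peaks had a window in which under 50% of the words occur only once, of which 3 were LAP-Smad3 peaks after TGFβ-1, at IL11, ANGPTL4 and GLI2. Without the 5, 46 peaks were left, and 3 genes in place of 4 had peaks of both treated lists. The share of such windows over the whole lists was not counted, so 5 of 51 is not read as unusual.

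**Figure D4:**
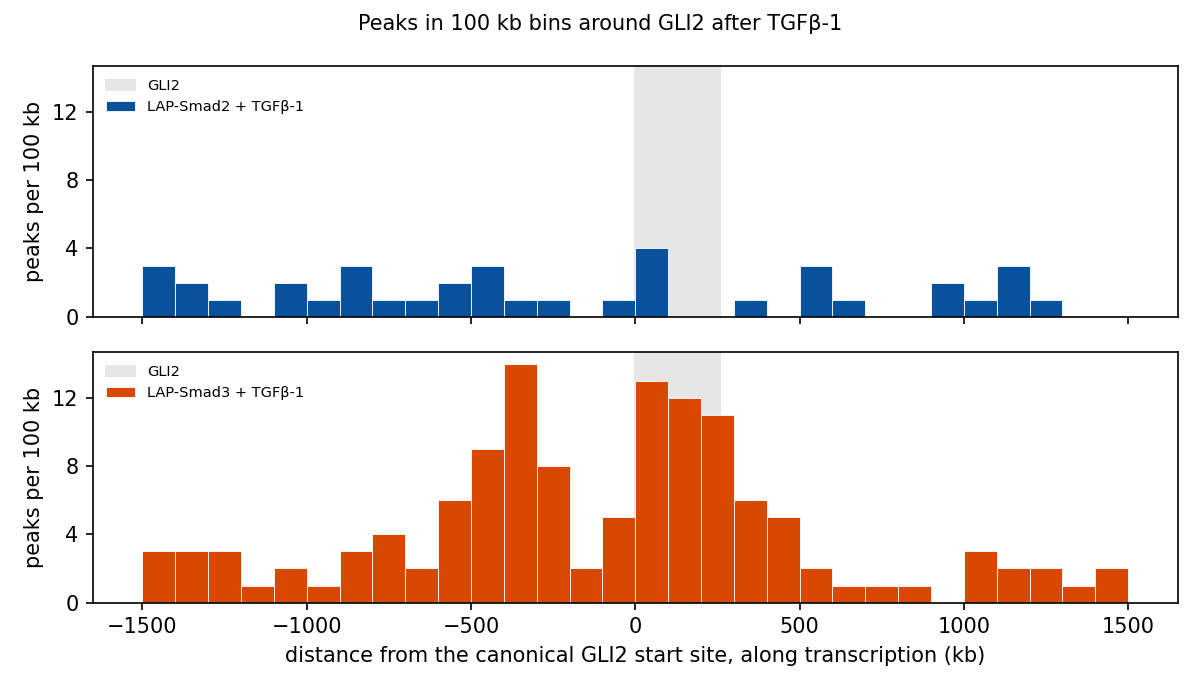
LAP-Smad2 (upper panel) and LAP-Smad3 (lower panel) peaks after TGFβ-1 in bins of 100 kb, by distance in kb from the canonical GLI2 start site along the direction of transcription, with GLI2 shaded. The LAP-Smad3 count reaches 14 in a bin upstream of GLI2 and 13 in its first bin, and the LAP-Smad2 count is at most 4 in any bin.

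LAP-Smad3 peaks were frequent around GLI2 as well as in it, as the plot of bins across the region shows. The gene body held 33 LAP-Smad3 summits, or 12.8 per 100 kb, the 500 kb upstream held 7.60 per 100 kb and the 500 kb downstream 3.40, beside 1.84 over all of chromosome 2. The bin with the highest count, 14, lay 300 to 400 kb upstream of the start site and held more peaks than the 13, 12 and 11 of the bins that cover the gene. For LAP-Smad2 the same stretches held 1.56, 1.20 and 1 per 100 kb, beside 0.812 over chromosome 2. Of the 4 LAP-Smad2 peaks at GLI2, all lay in the first 100 kb from the start site. Between the upstream bins with 9, 14 and 8 LAP-Smad3 peaks and the gene lay bins with 2 and 5, so the peaks upstream and those in the gene were not a single unbroken stretch.

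Motif matches were counted in the 200 bp around each summit, on either strand, for CAGAC, for GGCGC, for the palindromic Smad element GTCTAGAC and for TGANTCA (N is any base), the site of AP-1, a frequent partner of Smads. No match to GTCTAGAC is also a match to CAGAC, while matches to GGCGC on opposite strands can overlap. CAGAC was in 4 of the 8 LAP-Smad2 windows and 20 of the 41 LAP-Smad3 windows, beside 35.3% and 34.4% of all windows of those lists. GGCGC was in 6 of the 8 LAP-Smad2 windows and 4 of the 41 LAP-Smad3 windows, beside 57.7% and 43.3%. At GLI2 alone, CAGAC was in 17 and GGCGC in 3 of the 34 LAP-Smad3 windows. GTCTAGAC and TGANTCA were in none of the windows of these genes, and were rare in the lists themselves, at 0.0447% and 1.38% of LAP-Smad2 windows and 0.0560% and 2.70% of LAP-Smad3 windows.

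The windows of the 7 genes had a median G and C content of 67.2% in the LAP-Smad2 list and 59.0% in the LAP-Smad3 list, beside 65.0% and 58.5% over the lists. They held a median of 13.5 and 4 CpG, beside 12 and 7. The LAP-Smad3 windows of these genes, most of which are in GLI2 introns, thus had fewer CpG than the usual window of that list at nearly the same G and C content.

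The promoters of the 7 genes in RefSeq, from 250 bp before to 50 bp after a start site on hg38, were searched for the same motifs whether or not a peak lay on them. CAGAC was in the single promoters of IL11, PTHLH, JAG1, CCN2 and ANGPTL4, in 1 of 3 of CXCR4 and in 1 of 2 of GLI2. Of 35116 promoters, 45.3% held it, which is a share of promoters and not of genes. GGCGC was in the single promoters of PTHLH, JAG1 and ANGPTL4, in 1 of 3 of CXCR4 and in 2 of 2 of GLI2. It was in none of IL11 or CCN2, beside 48.6% of all promoters. TGANTCA was in the IL11 promoter and in 1 of 2 GLI2 promoters, beside 7.71%, and GTCTAGAC was in none, beside 0.202%. PTHLH, which had no peak, thus had both CAGAC and GGCGC at its RefSeq promoter, and such a match describes the letters, not a site.

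Around the 7 genes, 32 further genes of the same programme were counted, 20 genes of breast cancer metastasis signatures or TGFβ response and 12 receptors, ligands and transcription factors that act with the 7 genes. After TGFβ-1, 9 of the 20 had a LAP-Smad2 peak and 11 had a LAP-Smad3 peak, and 6 had both, beside 55.9%, 74.3% and 47.0% of all protein-coding genes. Of the 12 partners, 10 had a LAP-Smad2 peak, 10 had a LAP-Smad3 peak and 9 had both. The median count was 0 LAP-Smad2 and 1 LAP-Smad3 peaks over the signature genes, and 2 and 2.5 over the partners, beside 1 and 2 over all protein-coding genes. These are lists of few genes, and no difference between them was tested. The libraries labelled LAP-Smad2 and LAP-Smad3 untreated had peaks at 7 and 1 of the 32 genes, beside 22.0% and 9.14% of all protein-coding genes. Of the 32, 6 had none in any list, like PTHLH. The share of all protein-coding genes with none in any list was not counted. It cannot exceed the share without a LAP-Smad3 peak after TGFβ-1, a peak that 74.3% had. The 6 genes are thus not read as unusual.

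The genes of these lists with peaks of both treated Smads and the largest counts included receptors of the Hedgehog, Notch and parathyroid hormone pathways. PTCH1, the Hedgehog receptor that restrains GLI proteins, had 6 LAP-Smad2 and 6 LAP-Smad3 peaks. PTH1R, the receptor of the PTHLH product, had 3 and 8, although PTHLH itself had none. NOTCH1 and NOTCH2, receptors of JAG1, had 3 and 7, and 3 and 4. LTBP1, which holds latent TGFβ in the matrix, had 2 and 7, and FGF5, a growth factor, had 3 and 3. The median over all protein-coding genes was 1 LAP-Smad2 and 2 LAP-Smad3 peaks. These counts take no account of gene length, which was 453 kb for LTBP1 and 189 kb for NOTCH2 but 26.1 kb for PTH1R. The density of peaks at these genes was not computed, so the largest counts need not be the densest.

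Among these 32 genes alone, those most like IL11 by the counts in the 4 lists were its own receptor IL11RA and NEDD9, each with 0, 0, 1 and 3 peaks. EREG had the counts of JAG1, and CXCL8 and SMO had those of ANGPTL4. For GLI2 the closest of the 32, PTH1R, differed by 28 peaks summed over the lists. These are likenesses of small counts over 4 libraries within a chosen list and describe only how many peaks were called.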

How the data were processed

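Anti-GFP ChIP-seq was measured in 4 libraries, 1 per condition. Bowtie2 was used by the authors for alignment to hg38, and MACS2 for calling peaks in each library on single-end reads extended to 200 bp, while bedtools is also named in the submitters' processing notes. Tool versions, filters and the control library are not given in the sources used here. The fold enrichment deposited by the authors is a ratio over the local background, and −log10 of the p-value and of the q-value is deposited beside it. From each fold and p-value, the whole number of reads at the summit was recovered (tolerance 0.002 in log10 p, with 1 added to pileup and background).

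Peaks sharing at least 1 bp counted as overlapping, and peaks were set against GENCODE release 44 with Python 3.11.15, numpy 2.4.6, pandas 2.3.3 and scipy 1.17.1, and plotted with matplotlib 3.10.9. Words of 30 bases were counted over hg38 on both strands. Promoter sequences came from RefSeq. The functions were tested on simulated data.

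The 7 genes and the 32 further genes were chosen with earlier results of these data known. All 7 were named, of the others those with peaks of both treated lists, up to 6 by number, and those most like a member, the smallest summed difference in peak count over the 4 lists, where at most 3 tied. Alternatives were the gene alone, flanks of 50 kb, all annotated genes, a q-value of 0.01, other rules of overlap and a summit within 1 kb of a start site. Calling the untreated lists by their deposited names and leaving out windows with under 50% unique words were added after the data had been seen. Read totals are unknown, and intervals cover counting error only. Some of the genes and sequences examined are not reported here.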

Additional observations from a re-analysis of the deposited data

How the results depend on the processing

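Each count had 1 library behind it, and no paired analysis was possible because there was 1 library per condition and no result comes from a test. Of 80 values recomputed under the alternatives, 60 stayed within 1.5 times the reported one, among them the count of LAP-Smad3 peaks after TGFβ-1, at 35 to 57 beside 41, and 20 moved further. With the gene alone in place of gene and flanks, 3 genes had a LAP-Smad2 peak and 3 a LAP-Smad3 peak after TGFβ-1, and 1 peak at 1 gene was left for the library labelled LAP-Smad2 untreated. With flanks of 50 kb, there were 14 LAP-Smad2 peaks after TGFβ-1, 1 peak at 1 gene for the library labelled LAP-Smad3 untreated, and the shares of protein-coding genes with a peak were 42.1% and 17.5% for the libraries labelled LAP-Smad2 and LAP-Smad3 untreated. Over all annotated genes, the share for the library labelled LAP-Smad3 untreated was 5.68%. Within 1 kb of a start site there were 1 LAP-Smad2 and 4 LAP-Smad3 summits. If the untreated lists are called by their deposited names, LAP-Smad2 untreated has 0 peaks at 0 genes with a share of 9.14%, and LAP-Smad3 untreated has 2 peaks at 2 genes with a share of 22.0%. Without windows of repeated sequence, the library labelled LAP-Smad2 untreated kept 1 peak at 1 gene, the one at CXCR4. Each alternative changes a rule of counting or naming, and why each value moved was not tested. The depth of the libraries is unknown. No LAP-Smad2 peak after TGFβ-1 had fewer than 11 reads and LAP-Smad3 peaks were listed from 5 reads, at most common backgrounds of 3.21 and 0.812 reads, and a gene without a listed peak may still be bound below the threshold.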
